A study of Mus musculus with 11 samples.

Results

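Calcium release and reuptake genes of the heart muscle cell were followed in 11 RNA-seq libraries of mouse ventricular myocardium. The set holds 10 genes taken by name, with no cutoff on a measured value: the pump gene Atp2a2, its inhibitors Pln and Sln, the release channel gene Ryr2, the calcium store genes Casq2 and Hrc, the junction gene Jph2, the exchanger gene Slc8a1, and Cacna1c and Cacnb2 of the L-type channel. These are 10 of 46517 gene identifiers in the deposited count table. All 10 were found, and 9 passed the filter on low counts that left 14619 genes for testing; Sln did not.

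The study crossed genotype with surgery. Control mice, labelled WT, carried 1 copy of a Cre recombinase transgene (Tnnt2-Cre+/-), and mice labelled KO carried the same transgene with both Lmnb2 alleles floxed (Lmnb2 fl/fl, Tnnt2-Cre+/-), so that every group expressed the recombinase. Lmnb2 encodes lamin B2 of the nuclear lamina, and the troponin T promoter restricts Cre to heart muscle cells, which leaves the gene intact in the other cells of the ventricle. Mice had transverse aortic constriction (TAC), a narrowing of the aorta that loads the left ventricle with pressure, or sham surgery, at 10 to 12 weeks of age. Sham surgery is represented by 2 WT and 3 KO libraries, and TAC by 3 of each genotype; the label of WT sham 2 reads WT without naming Lmnb2. The labels state neither the strain nor the time between surgery and tissue collection. The labels do not state that each library came from a separate heart, so p-values measure the spread between these libraries.

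Each heartbeat depends on calcium cycling. The L-type channel admits a small calcium current at the transverse tubules, this opens ryanodine receptors on the facing sarcoplasmic reticulum, and the stored calcium that flows out makes the myofilaments contract. The muscle relaxes when the calcium pump SERCA2 returns calcium to the store, held back by phospholamban, and when the sodium-calcium exchanger carries the rest out of the cell. Lower SERCA2 is a long-known feature of failing hearts.

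Library totals lay between 1.48e+07 and 1.73e+07 counts. Values are given as CPM, a gene's count relative to the library total, after TMM scaling, an edgeR step that sets the libraries to a common level; every ± is 1 standard error (SE) unless given as SD. Lmnb2 itself stood at 4.44 and 3.86 CPM in the WT sham pair, and 0.649, 1.81 and 2.43 CPM in KO sham. Under TAC it had 2.86, 2.16 and 6.70 CPM in WT and 9.72, 3.24 and 4.46 CPM in KO. The gene was thus lower in all KO sham than in both WT sham libraries (log2 change -1.33 ± 0.64, edgeR adjusted p = 1), but the TAC groups overlapped (0.57 ± 0.55, edgeR adjusted p = 0.792). Because the targeted gene does not separate the TAC genotypes, KO below means the libraries labelled KO. Counts per gene do not show whether a transcript lacks the floxed exons.

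WT TAC 3 and KO TAC 1 stood apart from the other 4 TAC libraries. Ribosomal protein genes took 1.32% and 0.870% of their counts, against 3.17% to 6.73% in the other 4 and 0.651% to 1.72% in sham. Mitochondrially encoded genes took 30.5% and 35.9%, against 13.2% to 25.9% in the other 4 and 32.8% to 49.4% in sham. Heart muscle markers (8 of 8 tested) summed to 15582 to 26087 CPM in sham and 14489 to 22089 CPM in TAC. Of them only Tnni3, at 4219 to 7403 CPM in sham and 1921 to 3028 CPM in TAC, did not overlap. For 7.01% of all genes, every TAC library lay below every sham library. The medians in sham and TAC were 2706 and 4623 CPM for Tnnc1, 6249 and 6412 for Myl3 and 1918 and 1973 for Mybpc3. They were 894 and 898 CPM for Myom1, 892 and 800 for Actn2, 915 and 572 for Ttn and 792 and 464 for Ldb3. The atrial list stayed at 15.2 CPM or less in every library. Fibroblast markers (5 of 5 tested) summed to 616 to 899 CPM in sham and 980.1 to 1798 CPM in TAC, and macrophage markers (4 of 4) to 48.9 to 68.7 and 123 to 319 CPM. Most of the fibroblast sum was Dcn, at 470 to 799 CPM in sham and 551 to 1215 CPM in TAC. Dcn, Pdgfra and Tcf21 overlapped between sham and TAC, while Col1a1 and Lum were above sham in every TAC library. Endothelial markers (4 of 4) ran from 283 to 424 CPM in sham and from 158 to 829 CPM in TAC, the highest in KO TAC 1. Skeletal muscle markers (3 of 7 tested) reached 105.7 and 91.0 CPM in WT TAC 1 and 2, against 4.91 CPM or less in sham. Of that list, Tnnt3 reached 76.4 and Tnni2 25.6 CPM in TAC. Mylpf stayed at 3.69 CPM or less there, and Myh1, Myh2, Myh4 and Actn3 at 0.779 CPM or less. Smooth muscle and pericyte markers (5 of 5) spanned 521 to 944 CPM in sham and 548 to 921 CPM in TAC, mostly from Rgs5. Within that list only Cnn1, at 1.15 to 2.00 CPM in sham and 2.62 to 32.9 CPM in TAC, did not overlap. Every TAC library lay above every sham library for 6.58% of all genes. The medians in sham and TAC were 642 and 514 CPM for Rgs5, 43.2 and 25.4 for Kcnj8, 12.0 and 9.40 for Myh11 and 23.1 and 24.0 for Pdgfrb. Cnn1 and Tnni3 were named after their values were seen. The fat cell markers (2 of 4) had their highest sum, 12.5 CPM, in WT TAC 3. No marker was at 0 in every library. The part of these shifts in the results below was not tested. The change of each tested member over both genotypes is also given without WT TAC 3 and KO TAC 1. That pair was singled out in these same libraries, with ribosomal and mitochondrial shares nearer to sham than the other 4 TAC libraries. Larger changes without it are thus no separate support.

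After TAC, with both genotypes fitted together and genotype as a term, 7 of the 9 tested members fell and none rose. Over all 14619 genes, 8.96% fell and 10.6% rose, 19.5% in all. The 7 were Atp2a2, Pln, Ryr2, Hrc, Jph2, Cacna1c and Cacnb2, while Casq2 and Slc8a1 did not pass the test. The median log2 change of the 9 members was -0.86, against 0.05 over all genes. In 5 of the 9, Atp2a2, Pln, Hrc, Jph2 and Cacnb2, all 6 TAC libraries lay below all 5 sham libraries, as did 7.01% of all genes. Without WT TAC 3 and KO TAC 1 the same 7 of 9 passed, with Ryr2 at -0.82, Pln at -0.97, Jph2 at -1.10 and Cacnb2 at -1.17, while Casq2 was at 0.41 and Slc8a1 at -0.06; over all genes there were then 2688 rises and 2748 falls. Scaling to library totals in place of TMM put the median log2 change over all genes at 0.45 and gave 4 falls and 1 rise, Casq2, among the members. Over all genes it turned 1545 rises and 1310 falls into 3577 and 385, and scaling to 8 heart muscle genes into 1982 and 686. With libraries of title letter M only (the titles end in M in 8 libraries and in F in 3, with no meaning stated), 3 members fell. That set drops KO sham 2, WT TAC 1 and KO TAC 3 and keeps WT TAC 3 and KO TAC 1. The letter, the smaller sample and the larger weight of that pair cannot be told apart in it. Over all 14191 genes tested in that setting, 967 rose and 559 fell. In whole tissue, fewer heart muscle cells and less RNA per cell cannot be told apart.

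**Figure D1:**
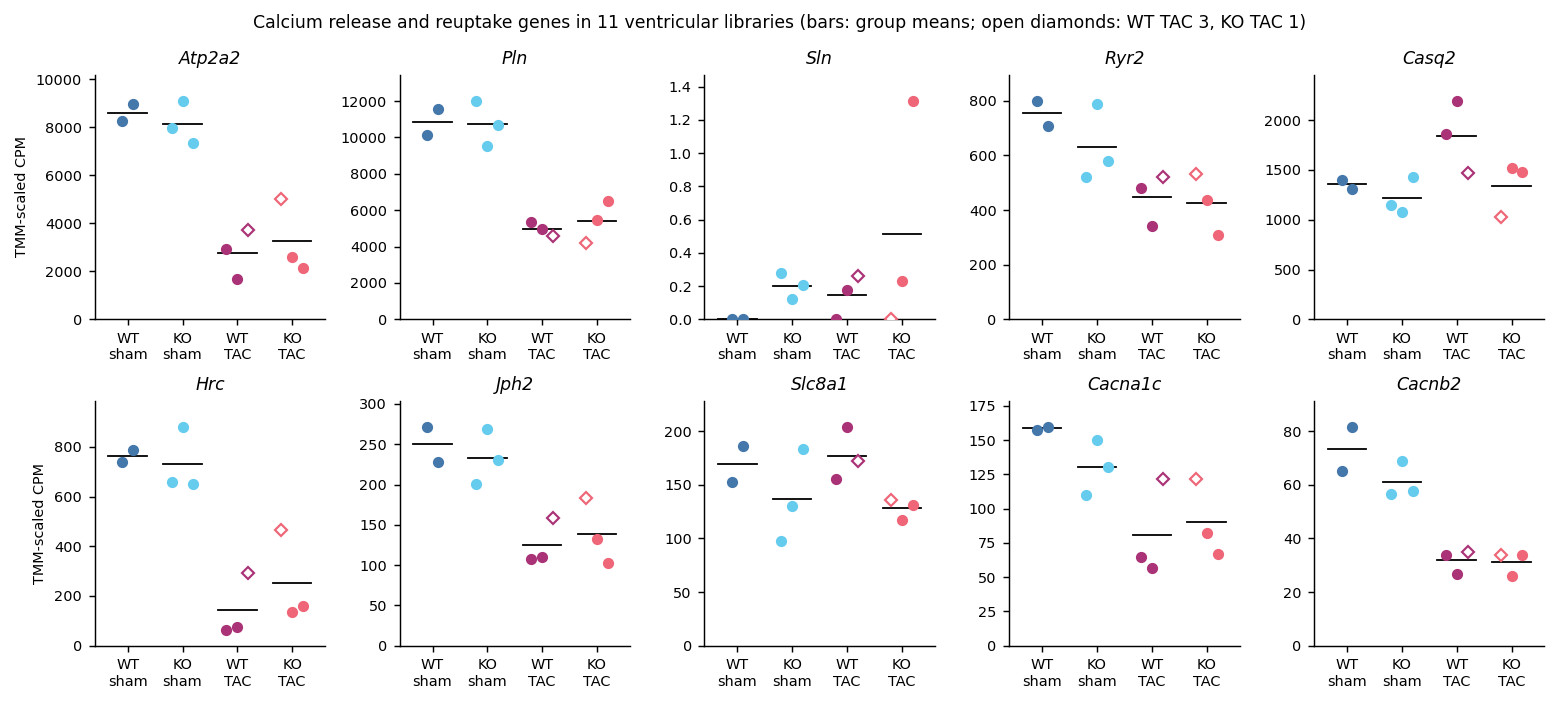
TMM-scaled CPM of the 10 members (vertical axes, each from 0) in the 4 groups (horizontal axes); each point is 1 library, bars are group means, and open diamonds mark WT TAC 3 and KO TAC 1. For Atp2a2, Pln, Hrc, Jph2 and Cacnb2 all 6 TAC points lie below all 5 sham points, and for Slc8a1 and Casq2 the points overlap.

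The pump gene Atp2a2 (ENSMUSG00000029467, chr5:122453513-122502225, minus strand, build GRCm38) encodes SERCA2, which returns calcium to the sarcoplasmic reticulum. It stood at 8277 and 8959 CPM in the WT sham pair and 7992, 9113 and 7336 CPM in KO sham. The WT libraries had 2941, 1696 and 3716 CPM under TAC, and the KO libraries 5016, 2585 and 2143 CPM. No TAC library reached the lowest sham library, and WT TAC 3 and KO TAC 1 were the highest of their groups. Atp2a2 fell by 1.46 ± 0.27 on the log2 scale over both genotypes (edgeR adjusted p = 0.00256), to 0.363 of its sham level. Without the 2 libraries that stood apart it fell by 1.85 (edgeR adjusted p = 6.6e-05), and it passed the test in all 21 alternative settings. Counts per gene do not separate the SERCA2a and SERCA2b transcripts.

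Pln (ENSMUSG00000038583, chr10:53337667-53345987, plus strand) encodes phospholamban, the small membrane protein that slows SERCA2 until it is phosphorylated. It stood at 10148 and 11578 CPM in the WT sham pair, 12018, 9546 and 10686 CPM in KO sham, 5376, 4976 and 4582 CPM in WT TAC and 4212, 5482 and 6485 CPM in KO TAC. The TAC libraries, from 4212 to 6485 CPM, lay below every sham library, and here WT TAC 3 and KO TAC 1 were the lowest of their groups. Pln fell by 1.05 ± 0.19 on the log2 scale (edgeR adjusted p = 0.00225), again in all 21 settings. Its exons overlap those of Cep85l by 141 bases and those of the noncoding Gm47644 by 1644 bases, 59.6% of the Pln exons, both on the opposite strand, and no source used here says whether counting used strand. Cep85l had 1065 counts over all libraries and Pln 1311317; Gm47644 was not analysed here. As a piece of DNA context for a gene that fell, the 250 bases before the RefSeq start of Pln (GRCm38.p6, chr10:53337436-53337685, plus strand) read, 5′ to 3′, with motif matches in capitals:
Pln: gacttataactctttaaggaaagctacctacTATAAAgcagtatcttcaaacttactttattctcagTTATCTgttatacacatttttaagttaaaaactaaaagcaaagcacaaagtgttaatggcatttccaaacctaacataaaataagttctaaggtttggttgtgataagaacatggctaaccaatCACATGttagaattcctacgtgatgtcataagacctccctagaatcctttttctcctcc
The capitals mark a TATAAA match at -219 to -214, counted from the base before the start as -1, a GATA match (AGATAA on the minus strand) at -183 to -178, and an E-box (CANNTG) at -59 to -54. The last bases of this window lie inside the GENCODE gene. Windows of 8 of the 10 members were in the RefSeq table used; Atp2a2 and Sln were the other two. Over all 32851 windows of 250 bases in that table, searched on both strands, 12.4% held TATAAA, 12.6% CATTCC (the MCAT element), 9.99% AGATAA, 66.2% an E-box, 2.92% a MEF2 site and 1.47% a CArG box. No motif matched here overlapped another.

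Sln (ENSMUSG00000042045, chr9:53850164-53854560, plus strand) encodes sarcolipin, a SERCA inhibitor found mainly in atria. It had 0 counts in both WT sham libraries, 3, 2 and 3 in KO sham, 0, 3 and 5 in WT TAC, and 0, 4 and 23 in KO TAC. All KO sham libraries were thus above WT sham, as for 6.80% of all genes, on 3 counts or fewer. There were 43 counts in all, 35 of them in TAC libraries and 12 of those outside KO TAC 3, and at most 1.32 CPM. A count of 0 in WT sham 1 and 2 allows up to 0.188 and 0.236 TMM-scaled CPM by a limit of 3 counts, which covers counting error only. With no filter on low counts the log2 change over both genotypes was 1.90 (edgeR adjusted p = 0.320), so no difference was detectable at this depth.

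Ryr2 (ENSMUSG00000021313, chr13:11553102-12106945, minus strand) encodes the ryanodine receptor, the channel through which the store empties. It stood at 800.3 and 708 CPM in the WT sham pair, 522, 788 and 579.6 CPM in KO sham, 482, 341 and 522 CPM in WT TAC and 533, 437 and 310.0 CPM in KO TAC. The groups overlapped, since KO sham 1 lay as low as the highest TAC libraries. Ryr2 fell by 0.65 ± 0.21 on the log2 scale over both genotypes (edgeR adjusted p = 0.0454). This call was lost in 16 of 21 settings: with library totals it was -0.25 (edgeR adjusted p = 0.478), and leaving out any library but KO sham 1 or KO TAC 1 gave adjusted p from 0.0532 to 0.140. The exons of Ryr2 span 28.8 kb, the most of the 10 members.

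The calcium store genes went apart. Casq2 (ENSMUSG00000027861, chr3:102086415-102146514, plus strand) encodes calsequestrin, the main calcium buffer inside the store, and Hrc (ENSMUSG00000038239, chr7:45335290-45338974, plus strand) the histidine-rich calcium binding protein of the same compartment. Casq2 stood at 1402 and 1312 CPM in the WT sham pair, 1146, 1079 and 1429 CPM in KO sham, 1864, 2193 and 1469.7 CPM in WT TAC and 1027, 1517 and 1478 CPM in KO TAC. All WT TAC libraries lay above both WT sham libraries, as they did for 19.1% of all genes, while the KO groups overlapped. Its log2 change over both genotypes was 0.27 ± 0.20 (edgeR adjusted p = 0.371), and it passed the test only with library totals (0.66, edgeR adjusted p = 0.0335).

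Hrc stood at 737 and 787 CPM in the WT sham pair and 658, 879 and 651 CPM in KO sham. The WT libraries had 62.2, 74.4 and 293 CPM under TAC, and the KO libraries 467, 135 and 158 CPM. Every TAC library was below every sham library, with a wide spread within TAC, and WT TAC 3 and KO TAC 1 were the 2 highest. Hrc fell by 1.93 ± 0.44 on the log2 scale over both genotypes (edgeR adjusted p = 0.00864), to 0.263 of its sham level. Without WT TAC 3 and KO TAC 1 it fell by 2.85 (edgeR adjusted p = 6.8e-06), with the share of ribosomal protein genes as a covariate by 1.27 (0.00173), and only with libraries of title letter M was the call lost (-1.55, edgeR adjusted p = 0.0819). The ratio of Hrc to Casq2 in counts per kb of exon, looked at after the values of both were seen and therefore not tested, was 0.485 to 0.869 in the sham libraries. In TAC it was 0.0356, 0.0362 and 0.213 in WT and 0.485, 0.0947 and 0.114 in KO, so that KO TAC 1 stood level with the lowest sham library, KO sham 3, and the other 5 well below.

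The windows before the RefSeq starts of these 2 store genes are shown side by side because one gene fell and the other did not (GRCm38.p6; Hrc chr7:45335019-45335268 and Casq2 chr3:102086165-102086414, both plus strand), with motif matches in capitals:
Hrc: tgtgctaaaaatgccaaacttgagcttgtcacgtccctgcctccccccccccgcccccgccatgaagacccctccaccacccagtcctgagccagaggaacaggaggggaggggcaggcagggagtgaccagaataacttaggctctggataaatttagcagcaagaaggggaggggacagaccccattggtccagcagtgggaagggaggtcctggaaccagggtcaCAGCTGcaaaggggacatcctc
Casq2: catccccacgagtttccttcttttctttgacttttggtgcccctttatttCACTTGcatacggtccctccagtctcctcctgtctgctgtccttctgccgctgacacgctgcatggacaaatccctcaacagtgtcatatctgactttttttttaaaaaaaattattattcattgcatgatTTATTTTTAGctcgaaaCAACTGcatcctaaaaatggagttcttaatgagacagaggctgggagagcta
Hrc held 1 E-box, CAGCTG at -22 to -17. Casq2 held a MEF2 site at -69 to -60 and E-boxes at -200 to -195 and -52 to -47. A match is a description of the letters and says nothing about binding in these hearts.

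Jph2 (ENSMUSG00000017817, chr2:163336242-163397993, minus strand) encodes junctophilin, which ties the transverse tubule to the sarcoplasmic reticulum so that both channels face each other. It stood at 271 and 228 CPM in the WT sham pair, 201, 269 and 231 CPM in KO sham, 108, 110.2 and 158 CPM in WT TAC and 183, 132 and 103 CPM in KO TAC. All TAC libraries were below all sham libraries, KO TAC 1 by the smallest margin. Jph2 fell by 0.86 ± 0.20 on the log2 scale over both genotypes (edgeR adjusted p = 0.0101), and lost the call with library totals (-0.46, edgeR adjusted p = 0.182) and with title letter M only (-0.65, edgeR adjusted p = 0.109).

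Slc8a1 (ENSMUSG00000054640, chr17:81373105-81738377, minus strand) encodes NCX1, the exchanger that moves calcium out against sodium. It stood at 152 and 186 CPM in the WT sham pair, 97.8, 130.3 and 183 CPM in KO sham, 155, 204 and 172 CPM in WT TAC and 136, 117 and 132 CPM in KO TAC. TAC and sham overlapped in both genotypes. The log2 change over both was -0.03 ± 0.19 (edgeR adjusted p = 0.942), an SE well under the falls of the pump and its inhibitor, and the sign turned in 7 of 21 settings, to 0.37 with library totals. The window before its RefSeq start (GRCm38.p6, chr17:81738388-81738637, minus strand) is given for comparison with Pln, since these 2 windows hold the only GATA matches among the members:
Slc8a1: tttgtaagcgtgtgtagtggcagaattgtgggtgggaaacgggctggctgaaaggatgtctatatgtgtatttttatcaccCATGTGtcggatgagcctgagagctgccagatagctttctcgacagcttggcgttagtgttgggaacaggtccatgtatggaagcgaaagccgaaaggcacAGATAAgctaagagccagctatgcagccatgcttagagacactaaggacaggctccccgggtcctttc
The capitals mark an E-box at -169 to -164 and a GATA match, AGATAA, at -68 to -63.

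Cacna1c (ENSMUSG00000051331, chr6:118587240-119196418, minus strand) encodes the pore of the L-type channel, Cav1.2. It stood at 158 and 159.5 CPM in the WT sham pair, 109.8, 150.2 and 130.2 CPM in KO sham, 64.9, 56.7 and 122 CPM in WT TAC and 122, 82.3 and 66.9 CPM in KO TAC. The TAC libraries reached into the sham range only through WT TAC 3 and KO TAC 1. Cacna1c fell by 0.72 ± 0.24 on the log2 scale (edgeR adjusted p = 0.0484), a call lost in 14 of 21 settings. Those included library totals (-0.31, edgeR adjusted p = 0.428), the ribosomal share as a covariate (-0.38, 0.179), and leaving out any 1 of both WT sham libraries, KO sham 2 or 3, WT TAC 1 or 2 and KO TAC 2 or 3 (adjusted p from 0.0799 to 0.133). Without WT TAC 3 and KO TAC 1 it fell by 1.08 (edgeR adjusted p = 0.000744).

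Cacnb2 (ENSMUSG00000057914, chr2:14603088-14987908, plus strand) encodes the beta subunit that brings the pore to the membrane and tunes its opening. It stood at 65.3 and 81.6 CPM in the WT sham pair, 56.7, 68.7 and 57.9 CPM in KO sham, 34.0, 26.6 and 34.9 CPM in WT TAC and 33.7, 25.8 and 33.7 CPM in KO TAC. The TAC values lay close together and far below sham, with WT TAC 3 at 34.9 and KO TAC 1 at 33.7 CPM. Cacnb2 fell by 1.08 ± 0.16 on the log2 scale (edgeR adjusted p = 0.00078), to 0.474 of sham, and passed the test in all 21 settings (adjusted p at most 0.0242).

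**Figure D2:**
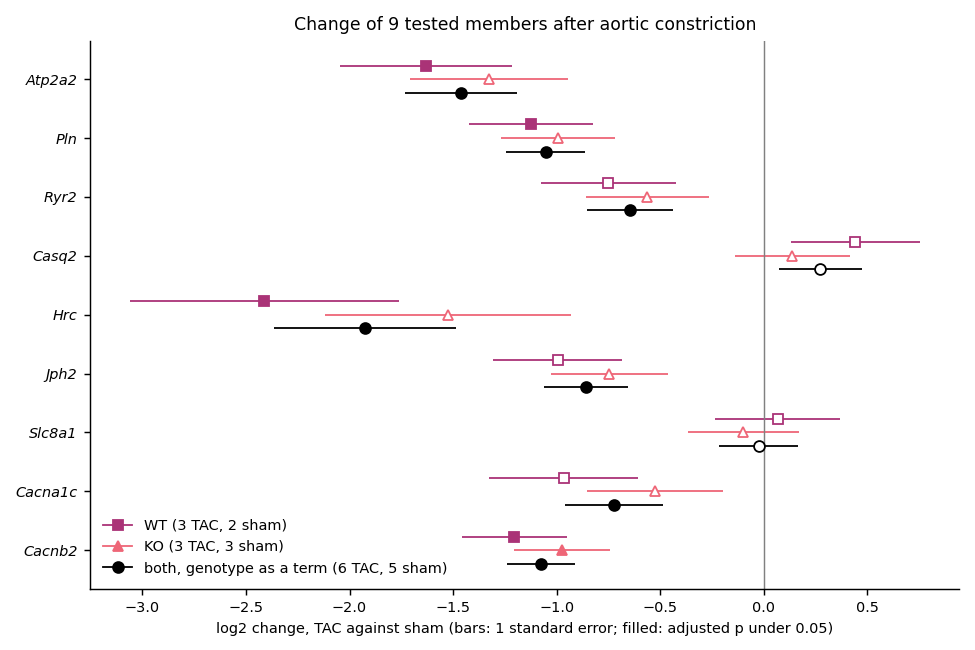
Log2 change of TAC against sham (horizontal axis) for the 9 tested members (vertical axis) in WT (squares), KO (triangles) and both genotypes together (circles); bars are 1 standard error and filled symbols passed an adjusted p of 0.05. Falls run from Hrc at -1.93 to Ryr2 at -0.65 in the joint fit, and Casq2 and Slc8a1 are open in all 3.

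Within single genotypes the same fit gave fewer calls. In WT, 4 of 9 members fell and none rose, where 3.04% of all genes fell and 3.88% rose, 6.92% in all: Cacnb2 (log2 change -1.20 ± 0.25, edgeR adjusted p = 0.0181), Atp2a2 (-1.63 ± 0.42, 0.0368), Pln (-1.13 ± 0.30, 0.0428) and Hrc (-2.41 ± 0.65, 0.0447). Jph2 stood at -0.996 ± 0.31 (edgeR adjusted p = 0.0712), Cacna1c at -0.97 ± 0.36 (0.119), Ryr2 at -0.75 ± 0.33 (0.171), Casq2 at 0.44 ± 0.31 (0.396) and Slc8a1 at 0.07 ± 0.30 (0.911). All WT TAC libraries were below both WT sham libraries for 7 of 9 members, all but Casq2 and Slc8a1, as for 21.2% of all genes. Leaving out WT TAC 2 ended all 4 calls (edgeR adjusted p from 0.0722 to 0.158), and falls over all genes went from 444 of 14619 to 101 of 14445. Without WT sham 1, which leaves 1 WT sham library, only sizes are given: Atp2a2 at -1.68, Pln at -1.22, Hrc at -2.46 and Cacnb2 at -1.36. Without WT sham 2 they stood at -1.58, -1.04, -2.37 and -1.05. Leaving out any KO sham library, WT TAC 1 or KO TAC 2 ended the calls of Atp2a2, Pln and Hrc, and leaving out KO TAC 3 that of Hrc (edgeR adjusted p from 0.0535 to 0.135). Falls over all genes were 267 to 314 without a KO sham library, 111 without WT TAC 1, 314 without KO TAC 2 and 440 without KO TAC 3. Without WT TAC 3 there were 6 member falls, with Hrc at -3.48, where 1227 of 14490 genes fell.

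In KO, 1 of 9 members fell, Cacnb2 (log2 change -0.97 ± 0.23, edgeR adjusted p = 0.0327), where 1.37% of all genes fell and 3.32% rose, 4.70% in all. Pln stood at -0.995 ± 0.27 (edgeR adjusted p = 0.0592), Atp2a2 at -1.33 ± 0.38 (0.0691), Jph2 at -0.75 ± 0.28 (0.167), Hrc at -1.53 ± 0.59 (0.178), Ryr2 at -0.56 ± 0.30 (0.334), Cacna1c at -0.53 ± 0.33 (0.427), Casq2 at 0.14 ± 0.28 (0.859) and Slc8a1 at -0.10 ± 0.27 (0.901). All KO TAC libraries were below all KO sham libraries for Atp2a2, Pln, Hrc, Jph2 and Cacnb2, as for 12.8% of all genes. Leaving out KO TAC 1 gave 3 falls, with Atp2a2 at -1.82 and Hrc at -2.35, and without WT TAC 3 as well there were 5. Over all genes, falls went from 201 of 14619 to 390 of 14490 and 1036 of 14363 in these settings. The KO call of Cacnb2 was itself lost without any KO sham library, KO TAC 2 or KO TAC 3 (edgeR adjusted p from 0.0871 to 0.155). Falls over all genes were then 43 to 83 in place of 201. Without either WT sham library, which leaves 1 in that group, Cacnb2 stood at -0.98 in KO.

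Whether the response to load differed between genotypes was tested as an interaction, and 0 of 9 members passed by edgeR, DESeq2 or limma-voom, as did 0% of all genes by edgeR. An unadjusted p under 0.05 was reached by 0 members and 434 genes. The widest differences among members were those of Hrc, whose change was higher in KO by 0.89 ± 0.87 on the log2 scale (edgeR adjusted p = 0.992), and Cacna1c, by 0.44 ± 0.49 (0.992). Both moved with single libraries: the difference was 0.050 for Hrc and 0.13 for Cacna1c without KO TAC 1, and 1.99 and 0.88 without WT TAC 3. Without both it was 1.14 for Hrc (edgeR adjusted p = 0.426) and 0.56 for Cacna1c (0.638). For Atp2a2 the difference was 0.30 ± 0.56 and for Pln 0.13 ± 0.41 (edgeR adjusted p = 0.994 for both). A call in WT and none in KO therefore does not show that the genotypes differ.

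Direct comparison of the genotypes also gave 0 of 9 members after sham and 0 of 9 after TAC, where 0% of all genes passed in either, and no member had an unadjusted p under 0.05 by edgeR, against 185 genes after sham and 930 after TAC. DESeq2 and limma-voom called 0 members as well. After sham the log2 changes of KO against WT ran from -0.30 (Slc8a1, SE 0.30) to -0.02 (Pln, SE 0.30), all with edgeR adjusted p = 1. For Cacna1c, all KO sham libraries were below both WT sham libraries, as for 8.47% of all genes. After TAC they ran from -0.47 ± 0.27 for Slc8a1 to 0.82 ± 0.59 for Hrc (edgeR adjusted p = 0.747 and 0.752). All KO TAC libraries were below all WT TAC libraries for Slc8a1, as for 3.34% of all genes, and Casq2 was next at -0.46 ± 0.28 (edgeR adjusted p = 0.748).

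On a scale that allows genes to be compared, TMM-scaled CPM per kb of exon, the sham order was Pln at 3913 ± 367 (SD, n = 5), Atp2a2 at 1371 ± 119.6, Casq2 at 466 ± 56.7, Hrc at 289 ± 37.2, Jph2 at 56.4 ± 7.02, Ryr2 at 23.6 ± 4.32, Slc8a1 at 7.97 ± 1.97, Cacna1c at 6.67 ± 0.998, Cacnb2 at 4.99 ± 0.758 and Sln last at 0.0921. Only Slc8a1, Cacna1c and Cacnb2 overlapped with a neighbour in this order. After TAC, Casq2 at 582 ± 145 (SD, n = 6) and Atp2a2 at 496 ± 197 changed places and overlapped, and Hrc at 77.3 ± 60.6 reached down to Jph2 at 31.1 ± 7.58. Casq2 was above Atp2a2 in 4 of 6 TAC libraries, all but WT TAC 3 and KO TAC 1, and in 0 of 5 sham libraries. Levels of long genes such as Ryr2 and Cacna1c on this scale take the whole annotated exon length as transcribed.

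Ratios between members within a library do not depend on scaling, and 5 were tested by an exact permutation of surgery labels within genotype (200 arrangements, 2-sided, adjusted over the 5). The exchanger-to-pump ratio, Slc8a1 to Atp2a2 in counts per kb, rose by 1.57 on the log2 scale, or 2.96-fold (exact p = 0.005, the smallest these arrangements can give, adjusted p = 0.025). It was 1.77 higher in WT and 1.37 higher in KO, and all 6 TAC libraries were above all 5 sham libraries. Log2 ratios were -7.39 and -7.22 in WT sham, -7.98, -7.76 and -6.95 in KO sham, -5.88, -4.69 and -6.06 in WT TAC, and -6.84, -6.09 and -5.66 in KO TAC. KO TAC 1 was closest to sham, only just above KO sham 3. Without WT TAC 3 and KO TAC 1 the rise was 1.86 (exact permutation, adjusted p = 0.0208). With title letter M only, the value was 1.47; its 36 arrangements allow no exact p under 0.0556, so that test could not pass. Leaving out single libraries other than KO TAC 1 put the adjusted p at 0.05 to 0.125, with fewer arrangements each.

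The calsequestrin-to-channel ratio, Casq2 to Ryr2, was 0.95 higher after TAC on the log2 scale (exact permutation p = 0.03, adjusted p = 0.075), and KO TAC 1 at 4.34 lay within the sham range of 3.85 to 4.70. Without WT TAC 3 and KO TAC 1 it rose by 1.26 (exact permutation, adjusted p = 0.0208). Pln to Atp2a2 was 0.49 higher (exact permutation p = 0.2, adjusted p = 0.21), with WT TAC 3 at 1.44 and KO TAC 1 at 0.888 against 2.01 to 2.74 in the other 4 TAC libraries and 1.21 to 1.73 in sham. Without those 2 libraries it rose by 0.91 (exact permutation, adjusted p = 0.0208). Cacnb2 to Cacna1c was -0.29 (exact permutation p = 0.21, adjusted p = 0.21) and Sln to Atp2a2 2.37 (p = 0.11, adjusted p = 0.183, exact permutation), the latter from counts near 0.

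**Figure D3:**
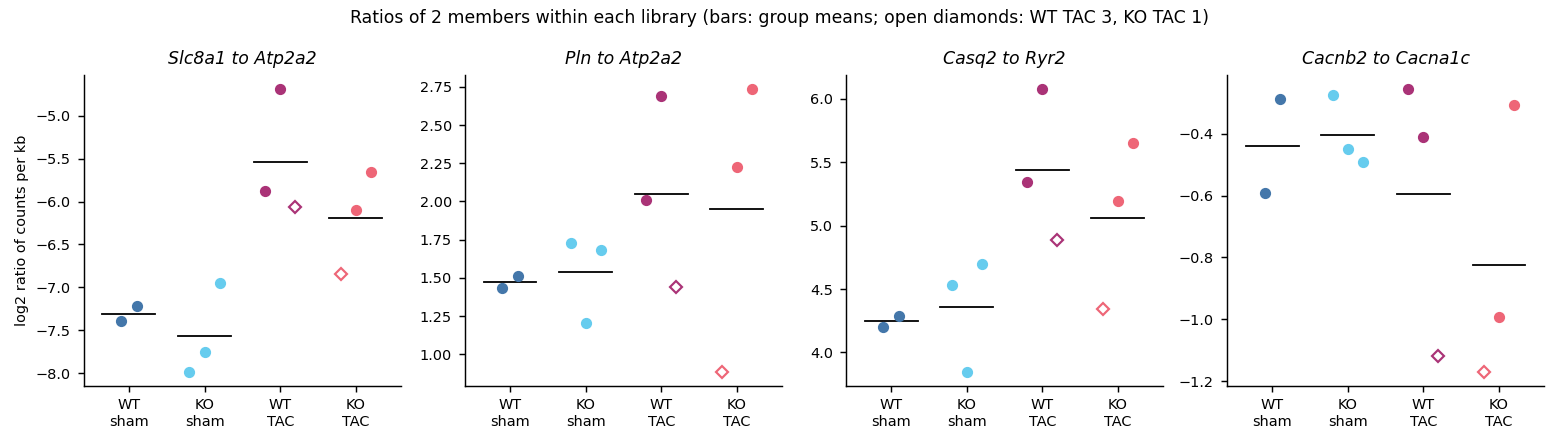
Log2 ratio of counts per kb (vertical axes) of 4 pairs of members in the 4 groups (horizontal axes); each point is 1 library, bars are group means and open diamonds mark WT TAC 3 and KO TAC 1. All TAC points lie above all sham points for Slc8a1 to Atp2a2, from -6.84 upward against -6.95 downward, and in the other 3 panels they overlap.

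Around the 10 members, a wider list of 86 calcium handling genes was described, of which 77 passed the filter. Over both genotypes 8 of 77 rose and 5 fell, shares near the 10.6% and 8.96% of all genes, with a median log2 change of -0.15 against 0.05. The list had 16 rises and 18 falls without WT TAC 3 and KO TAC 1, where 2688 and 2748 of 14363 genes rose and fell. With library totals it had 19 and 3, where 3577 and 385 of 14619 genes did. All 13 called genes passed again without that pair. Among regulators of the pump 0 of 15 tested genes rose and 3 fell. Akap7, a scaffold that holds protein kinase A near phospholamban, fell from 32.2 to 43.8 CPM in sham to 14.7 to 21.6 CPM in TAC (log2 change -1.12 ± 0.17, edgeR adjusted p = 0.00069). Its groups did not overlap, as for the 7.01% of all genes with every TAC library below sham. The fall passed in all 21 settings. Camk2a, a calcium-calmodulin kinase subunit, fell from 30.6 to 50.3 CPM down to 6.02 to 23.2 CPM (-1.59 ± 0.30, edgeR adjusted p = 0.00281), also in all 21. Camk2b fell too, with groups that overlapped and a call lost in 14 of 21 settings.

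Genes that act on release showed 3 rises and 0 falls among 17 tested, where 10.6% of all genes rose and 8.96% fell. Sri, sorcin, a calcium sensor that binds the ryanodine receptor, measured 38.1 to 45.6 CPM in sham and 46.9 to 146 CPM in TAC (log2 change 1.06 ± 0.26, edgeR adjusted p = 0.0125). Fkbp1a, an immunophilin that binds ryanodine receptors, measured 122 to 152 and 161 to 348 CPM (0.73 ± 0.21, edgeR adjusted p = 0.0251). For both, KO TAC 1 was the lowest TAC library; Sri lost its call in 3 and Fkbp1a in 6 of 21 settings. Calm2, a calmodulin gene, was the other rise, lost in 10. No gene passed among 4 of the store and folding group, 6 of the junction and tubule group or 9 of the surface exit group, and the 8 mitochondrial genes had 1 rise, Mcub, and 1 fall, Letm1 (-0.73 ± 0.19, edgeR adjusted p = 0.0173), lost in 7 and 8 settings.

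**Figure D4:**
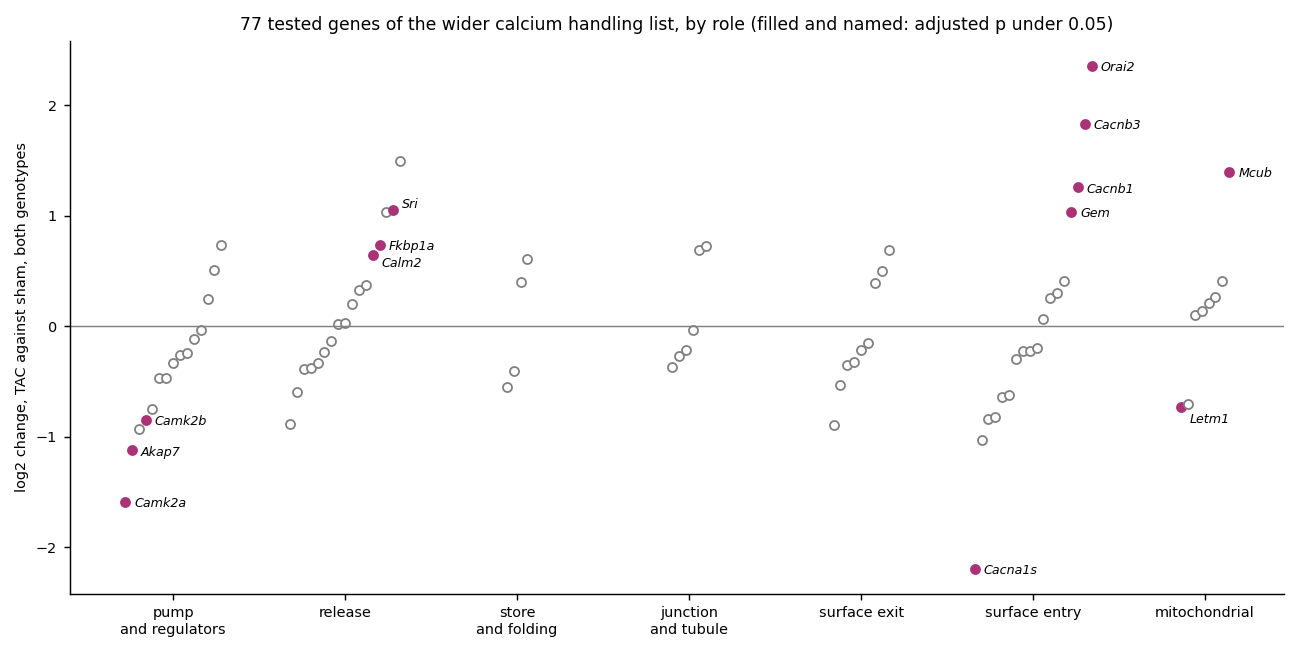
Log2 change of TAC against sham over both genotypes (vertical axis) for the 77 tested genes of the wider list, grouped by role (horizontal axis); filled and named points passed an adjusted p of 0.05. The surface entry group holds 4 rises and 1 fall, and the pump regulators hold 3 falls and 0 rises.

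The surface entry group had 4 rises and 1 fall among 18 tested, where 10.6% of all genes rose and 8.96% fell, and 2 beta subunits in it moved opposite to the member Cacnb2. Cacnb1 measured 3.34 to 3.94 CPM in sham, 9.17, 17.005 and 10.9 CPM in WT TAC and 5.19, 10.3 and 5.55 CPM in KO TAC (log2 change 1.26 ± 0.27, edgeR adjusted p = 0.0067). Cacnb3 measured 1.02 to 2.00 CPM in sham, 3.16, 4.97 and 4.26 CPM in WT TAC and 5.15, 5.72 and 6.75 CPM in KO TAC (1.83 ± 0.30, edgeR adjusted p = 0.00118). Both rises held in all 21 settings, scaling included, and no TAC library overlapped with sham. Every TAC library lay above every sham library for 6.58% of all genes. Cacna1s, the pore of the skeletal muscle channel, fell from 3.89 to 11.4 CPM in sham to 0.357 to 3.53 CPM in TAC (-2.19 ± 0.51, edgeR adjusted p = 0.00948), a call lost in 1 of 21 settings (highest adjusted p 0.0700).

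Gem, a small GTPase that binds beta subunits and damps the L-type current, measured 2.92 to 3.98 CPM in sham and 4.29 to 8.88 CPM in TAC (log2 change 1.03 ± 0.24, edgeR adjusted p = 0.00889). Orai2, a pore protein of store-operated calcium entry, measured 0.241 to 1.11 CPM in sham and 2.19 to 4.47 CPM in TAC (2.36 ± 0.41, edgeR adjusted p = 0.00194). Both passed in all 21 settings over both genotypes. Orai2 was the only gene of the wider list that rose in each genotype by itself (edgeR adjusted p = 0.041 in WT and 0.0432 in KO), and Akap7 the only one that fell in each (0.0258 and 0.0215). These calls were lost in 10 of 22 settings in WT and 10 in KO for Orai2, and in 10 and 7 for Akap7. Within WT 5 of 77 rose and 2 fell, where 3.88% and 3.04% of all genes did, and within KO 2 rose and 1 fell, where 3.32% and 1.37% did. In all, 0 of 77 passed in the interaction or in either comparison of the genotypes.

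**Figure D5:**
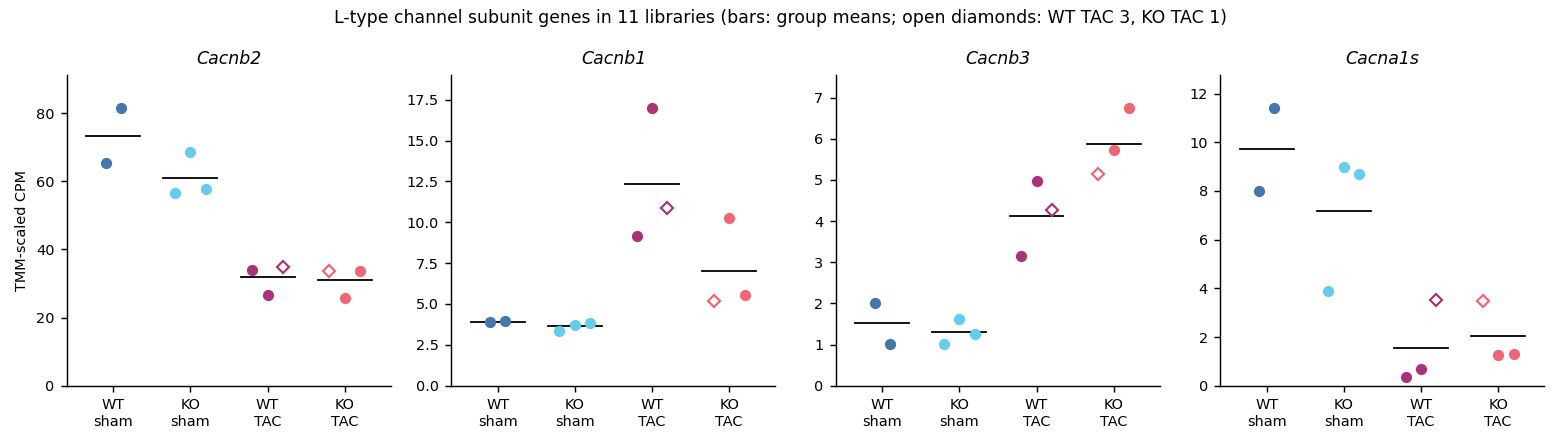
TMM-scaled CPM (vertical axes, each from 0) of 4 L-type channel subunit genes in the 4 groups (horizontal axes); each point is 1 library, bars are group means and open diamonds mark WT TAC 3 and KO TAC 1. In TAC, Cacnb2 lies at 25.8 to 34.9 CPM below all sham points, Cacnb1 and Cacnb3 lie above all sham points, and Cacna1s lies below them.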

How the data were processed

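Gene counts of 11 libraries were used as the authors deposited them, whole counts per Ensembl gene and not normalized. Per the submitters' processing notes the tools were STAR 2.5.1, featureCounts and DESeq2 and the build GRCm38; strand handling is not stated there. Of 46517 identifiers 46005 matched GENCODE M21, and the other 512 held 0.0198% of counts. The 10 members, the wider list of 86 genes, the marker lists and the ratios were chosen with earlier results of these data known, so p-values were adjusted over all genes tested and no list was tested as a set.

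edgeR 4.0.16 (R 4.3.3) filtered low counts, scaled by TMM and fitted quasi-likelihood models: 4 group means (7 residual degrees of freedom) for comparisons within and between genotypes and their interaction, and genotype plus surgery (8) for TAC against sham over both genotypes. Benjamini-Hochberg adjusted p-values under 0.05 were called. Standard errors were derived from the log2 change and the F statistic. Ratios used counts per kb with 0.5 added. The genes named were all members, Lmnb2, and per comparison up to 6 rises and 6 falls of the wider list with the smallest p among those called whose groups did not overlap; Camk2b, Calm2 and Mcub, called with overlap, were named after their values were seen. The script was tested on simulated data. Alternatives were library totals, DESeq2 size factors, scaling to 8 heart muscle genes, no filter, DESeq2 1.42.0, limma-voom (limma 3.58.1), covariates for the title letter or the ribosomal share, smaller sample sets, and each library left out. Promoter windows came from RefSeq.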

Additional observations from a re-analysis of the deposited data

How the results depend on the processing

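Over both genotypes the members' count of 7 became 3 with title letter M only and 6 with no filter. It became 5 with library totals, DESeq2 size factors, heart muscle scaling or either covariate, and was 5 to 7 without single KO sham or TAC libraries. Over all genes, the 1310 falls of this fit became 559 with letter M and 1291 of 24235 with no filter. They became 385 with library totals (beside 3577 rises), 1245 with DESeq2 size factors and 686 with heart muscle scaling. The letter covariate gave 1176 falls, the ribosomal covariate 1279, and leaving out single KO sham or TAC libraries 814 to 1891. In WT the count of 4 became 0 with library totals, only the groups compared or title letter M only, 1 with scaling to 8 heart muscle genes or either covariate, 7 without WT TAC 3 and KO TAC 1, and 0 to 6 without single libraries. In KO the count of 1 became 0 with library totals, heart muscle scaling, only the groups compared or title letter M only, 2 with no filter, 3 with DESeq2, 4 with the ribosomal covariate, 5 without that pair, and 0 to 3 without single libraries. Over all genes, the 444 falls in WT became 133, 138 and 41 (library totals, groups compared, letter M). They became 237, 249 and 176 with heart muscle scaling, the letter covariate and the ribosomal covariate. In KO the 201 falls became 60, 102, 157 and 15 (library totals, heart muscle scaling, groups compared, letter M). They became 403, 557 and 609 with no filter, DESeq2 and the ribosomal covariate. Without that pair, 2077 genes fell in WT and 1036 in KO. The cause was not tested.

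Log2 ratios without that pair were 0.91 (Pln to Atp2a2), 3.13 (Sln to Atp2a2) and 1.26 (Casq2 to Ryr2), each with an exact permutation adjusted p of 0.0208. The pair was singled out in these same libraries, with ribosomal and mitochondrial shares nearer to sham than the other 4 TAC libraries. Its removal is thus no separate support for a change. Sln to Atp2a2 rests on counts near 0, with 43 Sln counts in all. Slc8a1 to Atp2a2 was 1.47 with title letter M, where 36 arrangements cannot reach the threshold, and 1.35 to 1.73 without single libraries. Casq2 to Ryr2 passed at 0.94 with no genotype term and was 0.79 to 1.13 without single libraries, and Sln to Atp2a2 was 1.56 to 3.32.

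Signs turned only in values that had not passed. For TAC against sham Slc8a1 became 0.37, 0.18, 0.028 and 0.017 over both genotypes (library totals, heart muscle scaling, ribosomal covariate, letter M) and 0.34 and 0.12 in KO (the first 2 of these), and Casq2 -0.0081 in KO (letter M). For KO against WT after sham, heart muscle scaling gave Atp2a2 0.012, Pln 0.081, Hrc 0.028 and Jph2 0.027, the title letter Hrc 0.21, the ribosomal covariate Hrc 0.045, and letter M Pln 0.069. After TAC, Ryr2 was 0.055, 0.041 and 0.16 (library totals, heart muscle scaling, letter M), Cacnb2 0.096 and 0.11 (the first 2), and the ribosomal covariate gave Atp2a2 -0.050, Jph2 -0.069 and Cacna1c -0.14. The interaction was -0.0055 for Atp2a2 (ribosomal covariate) and -0.051 for Pln (letter M).

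Without single libraries, Slc8a1 ran from -0.070 to 0.21 in WT, -0.29 to 0.17 in KO and -0.11 to 0.12 over both. KO against WT after sham ran from -0.22 to 0.037 (Jph2), -0.10 to 0.076 (Pln) and -0.22 to 0.012 (Hrc), and after TAC from -0.15 to 0.10 (Cacnb2), -0.27 to 0.52 (Atp2a2), -0.16 to 0.59 (Cacna1c), -0.30 to 0.14 (Ryr2), -0.012 to 1.93 (Hrc), -0.13 to 0.38 (Jph2) and -0.018 to 0.23 (Pln). The interaction ran from -0.36 to 0.10 (Slc8a1), -0.19 to 0.60 (Atp2a2), -0.041 to 0.40 (Ryr2), -0.035 to 0.47 (Jph2) and -0.0074 to 0.24 (Pln), and kept its sign from 0.050 to 1.99 (Hrc) and 0.13 to 0.88 (Cacna1c).

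The wider list's 8 rises and 5 falls were 19 and 3 with library totals, 10 and 3 with heart muscle scaling and 13 and 9 with DESeq2. They were 5 and 2 with letter M and 16 and 18 without WT TAC 3 and KO TAC 1. Over all genes the 5 settings gave, in this order, 3577 and 385, 1982 and 686, 2049 and 1623, 967 and 559, and 2688 and 2748. No paired analysis was possible because the labels give the groups no shared replicate numbers. Every title, those of sham libraries included, begins with TAC, so the surgery group was taken from the treatment label alone. The title numbers of TAC and sham libraries fall in separate ranges, so that anything they might mark and surgery cannot be told apart. With 2 WT sham libraries, the genotype comparisons have standard errors of 0.23 or more on the log2 scale, and Sln is limited by its 43 counts.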
